A study of Homo sapiens with 14 samples.

Results

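CTCF binding sites were compared with regions of histone H3 lysine 27 acetylation (H3K27ac) in control Jurkat cells. The sites were the 30212 CTCF regions called in at least 2 of 3 CTCF peak lists, of 34069 regions in all, and 27010 of them were called in all 3. They were set against the 15239 H3K27ac regions called in both of 2 H3K27ac lists, of 18697 regions in all. Peaks of one target were joined into a region where they shared at least 1 bp, on chromosomes 1 to 22 and X. Of the 30212 CTCF regions, 11938 overlapped an H3K27ac region and 18274 did not.

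Jurkat is an established human line from a T cell acute lymphoblastic leukaemia. CUT&Tag was used, in which an antibody brings the Tn5 transposase to its target, where it inserts sequencing adapters into the DNA. The 5 control libraries, of 14 in the series, came from cells infected with a lentivirus carrying a control shRNA (shCtrl), 3 for CTCF and 2 for H3K27ac. Other libraries used here came from cells infected with an shRNA against SATB1 (shSATB1; 3 for CTCF, 2 for H3K27ac), from shCtrl cells for SATB1 (2), and from Jurkat cells with no shRNA on the label for Matrin 3 (2). Nothing in the labels said that libraries of one group came from separate cultures, so the spread between them may be technical.

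CTCF is a zinc finger protein that binds a long DNA motif, and it is known for stopping the cohesin ring as it extrudes chromatin loops. In this way it marks many boundaries of topological domains, and it can insulate enhancers from promoters. H3K27ac is laid down by the acetyltransferases CBP and p300 at active promoters and enhancers, and broad stretches of it in T cells and T cell leukaemias mark genes of cell identity.

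The CTCF lists held 31270, 31141 and 32540 peaks with median widths of 2371, 2454 and 2559 bp, and the H3K27ac lists held 17863 and 17141 peaks of 2074 and 2087 bp. Each list gives the summed and the highest signal of a peak. The highest signal was turned into a percentile within its own list, from 0 for the weakest to 100 for the strongest peak, and was compared only within a list. Library sizes were not analysed here and sequencing depth is therefore unknown. The lowest summed signal was 13359 to 14792 in the CTCF lists and 6653 to 6836 in the H3K27ac lists, so calling stopped at different levels for the targets. No control library lacking a specific antibody was analysed here, and how much of each list other antibodies would share was not tested.

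T cell markers were checked first. H3K27ac lay within 2 kb of an end of 18 of 20 T cell and thymocyte markers, beside 38.3% of all protein-coding genes, among them CD3D, CD3E, CD3G, LCK, GATA3 and PTCRA. The exceptions were CD5 and RAG1. H3K27ac was found at 6 of 12 B cell markers (CD79A, BLK, VPREB1, IGLL1, POU2AF1 and CR2), 1 of 12 myeloid markers (CEBPE), 1 of 10 erythroid markers (TFRC), none of 10 neuronal and none of 10 epithelial and stromal markers. The share of B cell markers, 50%, was the nearest of these to that of all genes. MS4A1 and PAX5 had none, and the part of other cells in the lists was not tested.

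Promoters with CTCF show what the regions look like at sequence level. A core of the CTCF motif was searched as CCA, AG and GGC in this order with any 2 bases between one and the next, on both strands, in RefSeq windows (GRCh38.p14) of 250 bases before to 50 after a gene start. The stretches below are 100 bases each, 5′ to 3′ on the gene's strand, with the matching letters in capitals. They come from the 3 genes with CTCF alone and the 3 with CTCF and H3K27ac whose matching promoter carried the highest CTCF percentile.
OTUD3 (CTCF alone, chr1:19882215-19882314, + strand): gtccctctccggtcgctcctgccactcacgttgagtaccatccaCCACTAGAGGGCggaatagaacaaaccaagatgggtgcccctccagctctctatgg
ENDOG (CTCF alone, chr9:128818334-128818433, + strand): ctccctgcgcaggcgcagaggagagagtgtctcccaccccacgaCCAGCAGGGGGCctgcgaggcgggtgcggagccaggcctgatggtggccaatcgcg
ESS2 (CTCF alone, chr22:19144679-19144778, - strand): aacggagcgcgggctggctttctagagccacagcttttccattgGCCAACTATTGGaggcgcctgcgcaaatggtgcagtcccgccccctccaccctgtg
TMEM170A (CTCF and H3K27ac, chr16:75464804-75464903, - strand): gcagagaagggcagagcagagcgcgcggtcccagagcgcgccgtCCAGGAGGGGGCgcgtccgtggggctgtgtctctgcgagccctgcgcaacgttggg
FAM133B (CTCF and H3K27ac, chr7:92590484-92590583, - strand): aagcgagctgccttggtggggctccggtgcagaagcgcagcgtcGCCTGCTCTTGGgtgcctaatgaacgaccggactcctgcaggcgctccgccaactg
SHBG (CTCF and H3K27ac, chr17:7613814-7613913, + strand): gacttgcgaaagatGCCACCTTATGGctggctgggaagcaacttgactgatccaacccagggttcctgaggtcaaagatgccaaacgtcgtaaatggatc

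In OTUD3, ENDOG and TMEM170A the letters read along the gene's strand, and in ESS2, FAM133B and SHBG along the other strand. The strongest point of the CTCF peak lay close to the letters in ENDOG, the mitochondrial endonuclease G, at 30, 25 and 1 bp in the 3 lists. In OTUD3, a deubiquitinase, it lay at 67, 67 and 46 bp. In TMEM170A the distances were 40, 28 and 31 bp, and in FAM133B 136 bp in each list. In SHBG, the sex hormone-binding globulin gene, they were 1267 to 1268 bp, so those letters lie away from the CTCF maximum.

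CTCF and H3K27ac shared much of their ground, but unevenly. Of CTCF regions, 39.5% overlapped H3K27ac (95% Wilson interval 39.0 to 40.1%), and of H3K27ac regions 77.8% overlapped CTCF (77.2 to 78.5%). By bases, 33.1% of the 117 Mb in CTCF regions lay in H3K27ac, and 69.1% of the 56.1 Mb in H3K27ac regions lay in CTCF. H3K27ac covered 1.86% of the 3024 Mb between the first and last annotated genes of the chromosomes, and CTCF 3.87%. Counted by peak in each CTCF list, 40.1%, 40.1% and 39.7% overlapped H3K27ac, a mean of 40.0 ± 0.243% (SD, n = 3). These Wilson intervals cover counting error only.

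The geometry of the overlap differed from site to site. A CTCF region wholly contained an H3K27ac region in 6214 cases (20.6% of CTCF regions), crossed 1 edge in 3555 (11.8%) and lay wholly within H3K27ac in 2169 (7.18%). Those containing an H3K27ac region had a median CTCF percentile of 74.5, and 66.8% of them had a gene end within 2 kb. The sites lying within H3K27ac had a median percentile of 31.9, below that of the regions more than 50 kb away (43.5), and 26.4% were near a gene end. Of the regions outside H3K27ac, 8357 were more than 50 kb from it, 8392 were 5 to 50 kb away and 1525 were within 5 kb. The median distance was 43.2 kb, with quartiles of 15.8 and 107 kb.

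CTCF sites in H3K27ac were often near gene ends. A gene end means here an annotated start, or either annotated end for genes with no entry in the promoter table. Of the CTCF regions in H3K27ac, 54.3% had a gene end within 2 kb, 26.2% lay elsewhere in a gene and 19.5% outside genes. Of those outside H3K27ac the shares were 24.5%, 39.7% and 35.8%. Seen the other way, H3K27ac was present at 59.2% of CTCF regions near a gene end and at 28.3% of the others. Near gene ends nearly every H3K27ac region carried CTCF (6507 of 6734, 96.6%), against 5355 of 8505 (63.0%) elsewhere.

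By chromosome, the share of CTCF regions in H3K27ac ran from 33.7% on chromosome 22 to 47.0% on chromosome 13. The share of H3K27ac regions with CTCF ran from 62.7% on chromosome 4 to 95.8% on chromosome 19. Chromosome 19 is the most gene-dense of those compared, at 24.8 genes per Mb, and on it 34.9% of CTCF regions were in H3K27ac.

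CTCF peaks overlapping H3K27ac were wider. Their median widths were 2767, 2849 and 3031 bp in the 3 lists, against 2183, 2257 and 2372 bp for the other peaks. Within each list the overlapping peaks were wider, by 612 ± 41.2 bp on average (SD, n = 3; exact two-sided sign-flip permutation p = 0.25, the smallest that 3 libraries allow). A wider peak has more chance to meet an H3K27ac region, and with peaks assigned by the position of their maximum the difference was 520 bp. It was 360 bp when H3K27ac had to cover 50% of a peak. Within quartile groups of each list by highest signal it was 463 bp on average.

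Their signal was also higher in the list as a whole. The median CTCF percentiles of overlapping peaks were 60.4, 61.1 and 62.1, against 47.2, 46.3 and 48.6 for the others, a difference of 13.8 ± 0.872 points (SD, n = 3; exact sign-flip permutation p = 0.25). The difference was 7.92 points when H3K27ac had to cover 50% of a peak and 7.64 points in the stronger 50% of each list. The quartiles of the groups overlapped in every list. The test cannot pass 0.05 with 3 libraries.

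**Figure D1:**
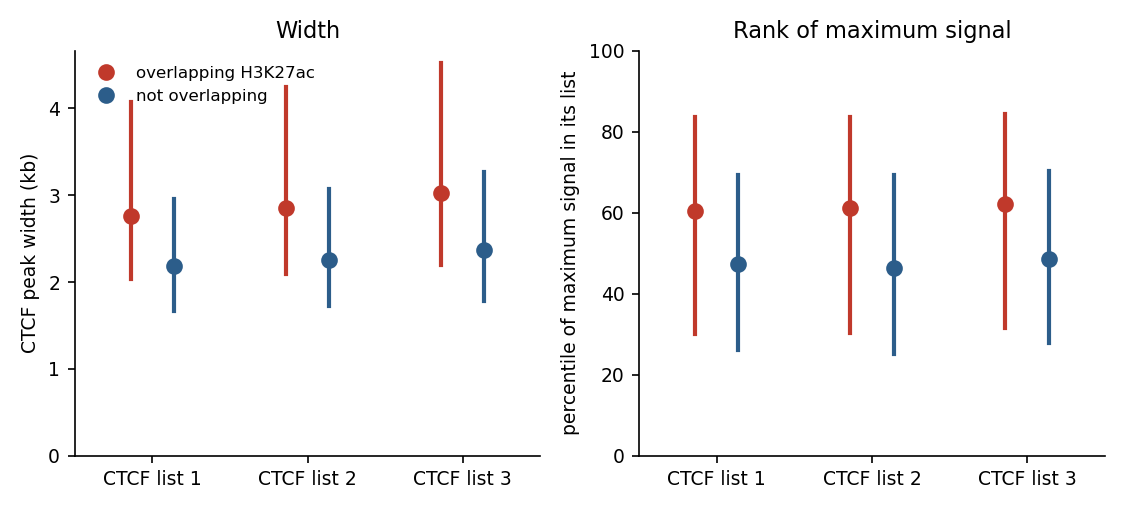
Median (points) and quartiles (bars) of CTCF peak width in kb and of the percentile of maximum signal, for peaks that overlap H3K27ac and peaks that do not, in each of the 3 control CTCF lists. Overlapping peaks have the higher median width and percentile in all 3 lists, while the quartile bars of the groups overlap.

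The higher rank belonged to peaks near gene ends, and among peaks away from gene ends the direction turned. The latter were compared as a single group, and whether peaks within genes differed from those outside genes was not tested. Among peaks with a gene end within 2 kb, the median percentile was 76.0 with H3K27ac and 57.5 without, a difference of 18.5 ± 0.482 points (SD, n = 3). Among the other peaks it was 39.1 with H3K27ac and 44.7 without, a difference of -5.61 ± 0.351 points. All 3 lists had the positive sign at gene ends and the negative sign elsewhere (exact sign-flip permutation p = 0.25 for the latter). Within quartile groups of peak width the difference was 2.85, 9.13, 8.64 and 6.31 points from the narrowest to the widest group. The share overlapping H3K27ac rose along the same groups, from 25.7% to 57.3%.

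**Figure D2:**
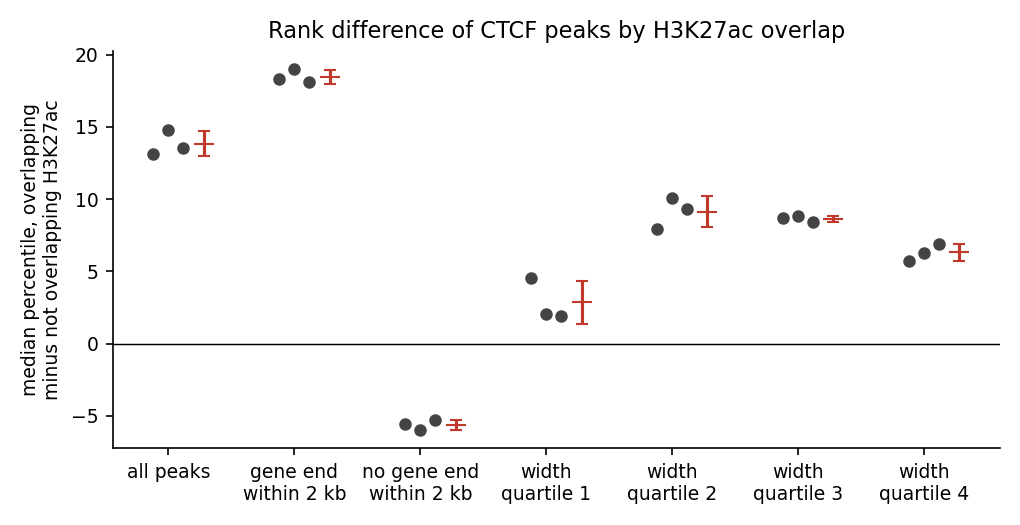
Difference in median percentile of maximum CTCF signal, overlapping minus not overlapping H3K27ac, for all peaks, by gene end within 2 kb and by quartile group of peak width (1 narrowest). Black points are the 3 lists and red bars their mean ± SD; only the peaks with no gene end within 2 kb lie below 0, at -5.61 points on average.

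The relation of rank and overlap was U-shaped. In the weakest decile of each CTCF list, 41.5 ± 0.244% of peaks overlapped H3K27ac (SD, n = 3). The share was 30.0% in deciles 3 and 4 and reached 62.9 ± 0.361% in decile 10. The share with a gene end within 2 kb showed no such dip, and went from 19.4% in decile 1 to 68.6% in decile 10. Widths in part followed the same shape, with medians of 2386 bp in decile 1, 2042 bp in decile 3 and 3772 bp in decile 10. When overlap was judged by the position of the maximum, decile 1 had 40.1% and decile 4 had 29.0%.

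**Figure D3:**
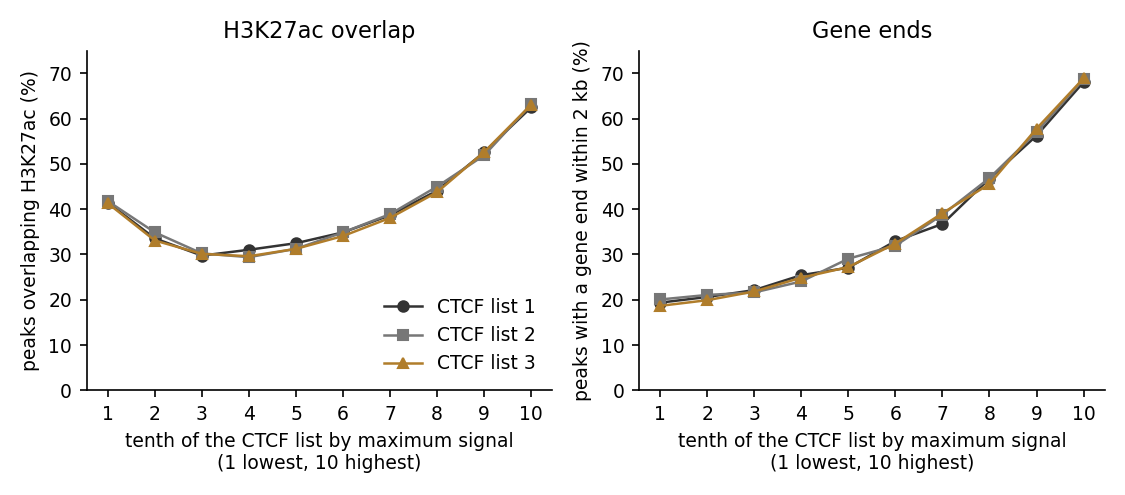
Share of CTCF peaks overlapping H3K27ac (left) and share with a gene end within 2 kb (right), in %, by decile of maximum CTCF signal in each of the 3 control lists. Overlap is 41.5% in decile 1, lowest in deciles 3 and 4 at 30.0% and 62.9% in decile 10, while the share near gene ends goes from 19.4% to 68.6%.

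H3K27ac regions with CTCF were wider and stronger than those without. Median H3K27ac peak widths were 2312 and 2288 bp with CTCF and 1927 and 1896 bp without. The median H3K27ac percentiles were 62.5 and 60.4 with CTCF and 35.4 and 33.7 without. The rank difference was present away from gene ends too (64.8 against 35.4, and 63.3 against 33.7) and at gene ends (59.9 against 32.8, and 58.9 against 30.9). Only 2 libraries were available, so no test was made. The width difference turned when only the stronger 50% of each list was kept (-444.5 bp), and the rank difference was then 4.07 points. CTCF was present at 50.5% of the H3K27ac regions in the lowest decile of H3K27ac signal and at 96.6% in the highest.

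Broad H3K27ac regions nearly always overlapped CTCF, with fewer maxima per kb than narrow ones. CTCF overlapped 79.5% of the 73 H3K27ac regions under 1 kb and 72.3% of those of 1 to 2 kb. It overlapped 93.3% of those of 8 to 16 kb and 96.9% (254 of 262) of those over 16 kb. CTCF maxima per kb fell over the same classes, from 0.812 ± 0.0235 to 0.410 ± 0.00745, 0.116 ± 0.00263 and 0.10 ± 0.00315 (SD, n = 3). The lowest of these was still above the 0.0131 per kb found 20 to 50 kb outside H3K27ac. Region width enters both the share and the density, and its part was not tested. Most H3K27ac regions held a single CTCF maximum (69.2 ± 1.05%) and 27.2 ± 0.903% held none. A further 2.66 ± 0.159% held 2, and 0.971 ± 0.103% held 3 or more.

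The 6 regions with the most CTCF maxima were 48.9 to 77.5 kb wide. The first, of 69.7 kb in CDK6, a cyclin-dependent kinase of the G1 phase (chr7:92717582-92787279), held 8, 7 and 9 maxima in the 3 CTCF lists. One of 77.5 kb in ETV6, an ETS repressor (chr12:11749338-11826858), held 5, 8 and 9, and one of 49.7 kb in RUNX1, a master regulator of blood cells (chr21:35002512-35052235), held 5, 7 and 7. A 58.6 kb region 949 kb from BCL11B, its nearest protein-coding gene (chr14:98161634-98220246), held 8, 5 and 6. BCL11B is the transcription factor that fixes T cell identity. SPTBN1, a spectrin, and FYB1, an adapter of T cell receptor signalling, had regions with 6, 6 and 6 and with 6, 8 and 4 maxima. Counts varied between lists by up to 4 in a region, so these genes are not ordered among themselves.

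The widest H3K27ac regions that no CTCF region overlapped were between 17.0 and 21.8 kb. The first was in PPM1H, a phosphatase (chr12:62897606-62919407), at H3K27ac percentiles of 95.7 and 95.8, and a single CTCF peak of list 3 had its maximum in it. The others held no CTCF maximum in any list. They lay in TFDP2, the DP2 partner of E2F factors, in SH2D1A, the adapter SAP of T and NK cells, and in ANGPT1, a ligand of the TIE2 receptor. The last of them were outside genes, 74.8 kb from IKZF2, the Helios gene, and 210 kb from CD83, a surface marker of activated immune cells. None had a gene end within 2 kb. The region in SH2D1A spanned chrX:124352092-124371233 and stood at percentiles of 93.5 and 95, so lack of a CTCF call there did not go with a weak H3K27ac signal.

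The edges of H3K27ac regions were then examined, since CTCF is known as a boundary factor. CTCF maxima were denser in the interior than at these edges. An edge is the end of a called H3K27ac peak, so CTCF maxima close to H3K27ac maxima tend to fall in the interior. How much of the difference comes from this was not tested. Around the 3595 H3K27ac regions of at least 4 kb, there were 0.150, 0.145 and 0.146 CTCF maxima per kb in the interior, more than 1 kb from an edge. In the first 1 kb inside an edge there were 0.0761, 0.0766 and 0.0773. The difference was -0.0702 ± 0.00289 per kb (SD, n = 3; exact sign-flip permutation p = 0.25), and the edge held 0.522 ± 0.0120 times the interior density. The difference was -0.0217 per kb in the stronger 50% of each list, -0.0415 with edges of the bases that both H3K27ac lists share, and -0.169 with a 2 kb minimum width and 500 bp edges.

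Just outside the edge the density was lower still. It was 0.00813 ± 0.000533 per kb in the first 1 kb outside, 0.0148 ± 0.000580 from 1 to 5 kb and 0.0131 ± 0.000382 from 20 to 50 kb. The 20 to 50 kb class was measured around all 15239 H3K27ac regions, and the nearer classes around those of at least 4 kb only. The first 1 kb outside held 0.623 ± 0.0556 times the density at 20 to 50 kb, and was below it in all 3 lists. Maxima mark a single base of peaks that are over 2 kb wide, and the bases that CTCF peaks covered gave a different picture outside. They were 62.0% of the interior, 42.2% of the first 1 kb inside, 16.8% of the first 1 kb outside, 8.04% from 1 to 5 kb and 3.57% from 20 to 50 kb. Coverage by CTCF peaks declined steadily with distance, while the density of maxima had its lowest value just outside the edge.

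**Figure D4:**
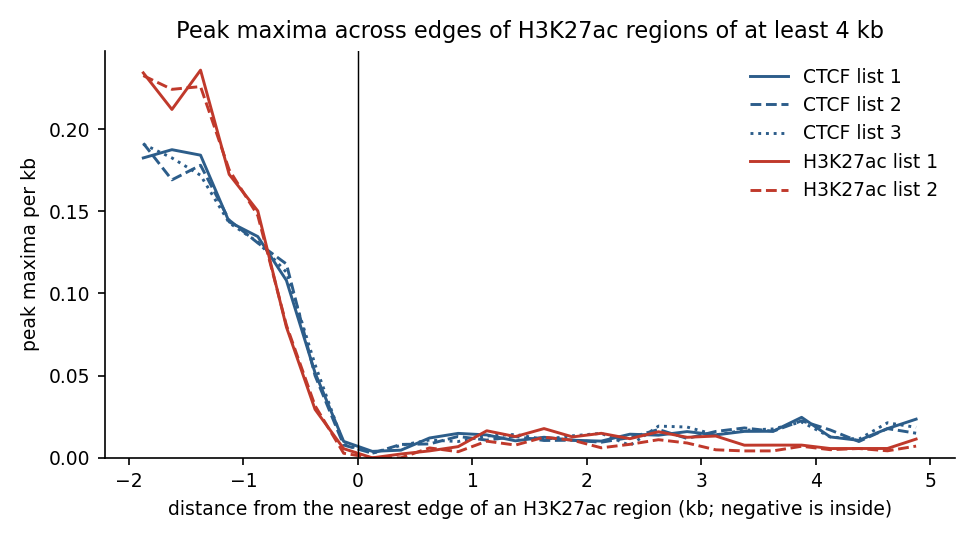
Peak maxima per kb against distance from the nearest edge of H3K27ac regions of at least 4 kb, in steps of 250 bp (negative is inside), for the 3 CTCF and 2 H3K27ac control lists. CTCF is lowest close outside the edge, climbs within 2 kb inside it and shows no peak at 0. The regions are merged H3K27ac peaks, so the lack of H3K27ac maxima close outside the edge is built in and is no observation.

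The regions are built from H3K27ac peaks, and the maxima of those peaks also lay away from the edges. Along the length of the regions of at least 4 kb, the outer 20% held 9.52%, 9.16% and 9.66% of CTCF maxima in the 3 lists, and the middle 20% held 25.8%, 25.6% and 25.9%. Of H3K27ac maxima, the outer 20% held 4.47% and 5.15% and the middle 20% held 30.1% and 30.2%. Where a CTCF and an H3K27ac peak overlapped, their maxima were a median of 79 to 87 bp apart over the 6 pairs of lists. Of these maxima, 53.5 to 55.8% were within 100 bp and 12.9 to 14% were over 1000 bp apart.

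CTCF flanking within 5 kb was counted next. Maxima inside any H3K27ac region were left out, and each merged CTCF region gave 1 maximum, its strongest by percentile. CTCF maxima lay at 0.0131 per kb 20 to 50 kb outside H3K27ac. The number of flanked regions that such a density would give was not worked out. The counts therefore do not say whether flanking was rarer or commoner than elsewhere. A CTCF maximum lay within 5 kb outside both edges of 46 H3K27ac regions (0.302%; 0.226 to 0.402%), outside 1 edge of 1427 (9.36%) and outside neither of 13766 (90.3%). The separate CTCF lists gave 67, 68 and 70 regions with both edges flanked. All 46 regions also overlapped a CTCF region themselves, as did 91.7% of those flanked at 1 edge and 76.3% of those with no flanking CTCF.

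Genes with H3K27ac near an end nearly always had CTCF near an end as well, while CTCF often stood alone. Each was looked for separately at every end used for a gene, so they need not overlap or share an end. For genes with no entry in the promoter table, among them CD5, CD4, FOSL1, IGF2, COL1A1 and PCDHGC5, the call may lie at the 3′ end. Of 19974 protein-coding genes, 7474 (37.4%) had both within 2 kb of an end, 4345 (21.8%) CTCF alone, 181 (0.906%) H3K27ac alone and 7974 (39.9%) neither. CTCF was thus at 59.2% of all genes and H3K27ac at 38.3%. CTCF was at 97.6% of genes with H3K27ac and at 35.3% of those without. The count with H3K27ac alone was 295 when CTCF had to be called in all 3 lists, and 288 without CTCF list 3, when both other lists had to call it. The median CTCF percentile at genes with both was 78.3, 78.3 and 79.2 in the 3 lists, against 62.9, 63.3 and 64.1 at genes with CTCF alone. The gene lists below are described by these counts, and nothing was tested for a list.

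Genes of T cell identity mostly had both. Of 20 T cell receptor signalling genes, 17 had both (85.0%, against 37.4% of all genes), CD5 and CD4 had CTCF alone and PTPRC neither. LCK, the kinase that starts receptor signalling, stood at CTCF percentiles of 96.0, 93.2 and 94.9 and H3K27ac percentiles of 99.7 and 99.5. VAV1, a guanine nucleotide exchange factor, FYN, a kinase related to LCK, and PRKCQ, protein kinase C theta, had mean CTCF percentiles of 94.0, 90.1 and 89.9. CD5, an inhibitory co-receptor, had CTCF percentiles of 95.5, 95.5 and 96.4 with no H3K27ac, and CD4, the co-receptor for MHC class II, 94.1, 94.0 and 93.4. High CTCF signal was therefore found at T cell genes with and without the mark. The median CTCF percentile of the 19 with CTCF was 84.0, and that of all 11819 genes with CTCF was 73.4.

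Of 20 T-lineage transcription factors, 16 had both (80.0%, beside 37.4% of all genes), 3 CTCF alone and TOX2 neither. BCL11B stood at 99.3, 99.5 and 99.5 for CTCF and 86.3 and 83.5 for H3K27ac. TCF7, the gene of TCF-1, lay in an H3K27ac region of 76.9 kb and had CTCF percentiles of 93.3, 94.3 and 94.2. IKZF3, the Aiolos gene, and ID3, an inhibitor of E proteins, had mean CTCF percentiles of 98.7 and 92.9. CTCF stood alone at ZBTB7B, the ThPOK gene of the CD4 lineage, at 96.9, 97.8 and 97.9, at HES1, a Notch target, with a mean of 16.2, and at ETS1 only weakly, at 0.200 and 0.0876 in lists 1 and 3 with no peak in list 2. The ETS1 call thus rests on some of the weakest peaks of those lists.

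Of 16 thymocyte and recombination genes, 12 had both. DNTT, which adds untemplated bases when antigen receptor genes are joined, stood at 95.4, 94.1 and 93.6 for CTCF and 97.2 and 98.1 for H3K27ac. CD8A, the other main co-receptor gene, had high CTCF percentiles of 92.6, 91.8 and 92.2 beside low H3K27ac percentiles of 12.9 and 9.24. The recombinase genes RAG1 and RAG2 are neighbours and were split. RAG1 had CTCF alone, at 94.4, 94.6 and 94.7, and RAG2, named after its values were seen, had H3K27ac alone, at 93.5 and 93.7 in a region of 15.6 kb. Of 20 genes of the TAL1 circuit, the transcription factor set of this leukaemia class, 14 had both (70.0%, beside 37.4% of all genes). LYL1 and LMO2 had CTCF alone and TLX1, TLX3, NKX2-1 and HHEX neither. LMO1, a TAL1 partner, stood at 93.3, 90.8 and 91.5 for CTCF and 97.0 and 96.1 for H3K27ac. LMO2, its relative, had lower CTCF percentiles of 40.0, 32.8 and 42.9.

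Housekeeping groups mostly had both as well, beside 37.4% of all genes. All 20 listed cytosolic ribosomal protein genes did, although their H3K27ac was not always high. RPL5 stood at 99.7 in each CTCF list and at 18.7 and 39.1 for H3K27ac. Of 24 genes of CTCF and cohesin, 21 had both, BPTF and CTCFL had CTCF alone and HDAC8 neither. STAG1, a cohesin subunit, stood at 99.8, 99.9 and 99.9 for CTCF. The CTCF gene itself stood at 99, 98.8 and 98.9 for CTCF and 97.9 and 98.2 for H3K27ac. Its germline paralogue CTCFL had CTCF percentiles of 60.4, 36.3 and 59.3, a wide spread between lists. Of 24 cell cycle genes 21 had both, with PCNA, the replication clamp, at 99.5 in each CTCF list, and E2F1, CCNE1 and CCND2 had CTCF alone.

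Of 20 immediate-early genes, which answer growth and antigen signals within minutes, 13 had both (65.0%, beside 37.4% of all genes), 5 had CTCF alone and IER3 and ATF3 had neither. The 25% with CTCF alone was near the 21.8% of all genes. EGR1 stood at 99.1, 99 and 99.1 for CTCF with H3K27ac at 80.7 and 81.7. FOSL1, of the AP-1 family, had CTCF alone at 99.4, 99.7 and 99.7. The CTCF alone group ran down to a mean of 11.2 at FOS, so its members share the class but not the strength.

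Gene clusters and imprinted genes, where CTCF has long been studied, were set beside the 61.7% of all genes that had CTCF alone or neither. With or without the other, CTCF was at 59.2% of all genes and H3K27ac at 38.3%. Of 26 clustered protocadherin genes, whose promoter choice in neurons depends on CTCF, PCDHGC5 (72.3, 70.2 and 64.5) and PCDHA8 (53.3, 49.1 and 55.7) had CTCF and none had H3K27ac. Of 11 HOX cluster A genes 5 had CTCF, led by HOXA3 at 91.2, 93.5 and 92.4, and none had H3K27ac. Of 20 imprinted genes 5 had both, 5 had CTCF alone and 10 had neither, so their 25% with CTCF alone was near the 21.8% of all genes. IGF2, the growth factor gene governed by a CTCF insulator, had CTCF alone at 95, 93.9 and 95.1. INPP5F led those with both, at 93.0, 89.0 and 91.8 for CTCF but 40.2 and 18.5 for H3K27ac. None of 16 olfactory receptor genes had a call of either kind.

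Markers of other lineages were described in the same way. CTCF alone or neither was found at 11 of 12 myeloid, 9 of 10 erythroid and all neuronal, epithelial and stromal markers, but at 6 of 12 B cell markers, beside 61.7% of all genes. CTCF alone was found at 4 of 12 myeloid, 4 of 10 erythroid, 4 of 10 neuronal and 2 of 10 epithelial and stromal markers, beside 21.8% of all genes. EPOR, the erythropoietin receptor, stood at 99.7, 99.8 and 99.8 and COL1A1, a collagen of connective tissue, at 99.6 in each list. Strong CTCF at a gene end was thus not limited to genes that carry H3K27ac in these cells. The B cell marker IGLL1, part of the surrogate light chain of the pre-B cell receptor, had H3K27ac percentiles of 98.5 and 98.6 in a region of 17.7 kb and CTCF percentiles of 40.0, 47.2 and 50.1.

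**Figure D5:**
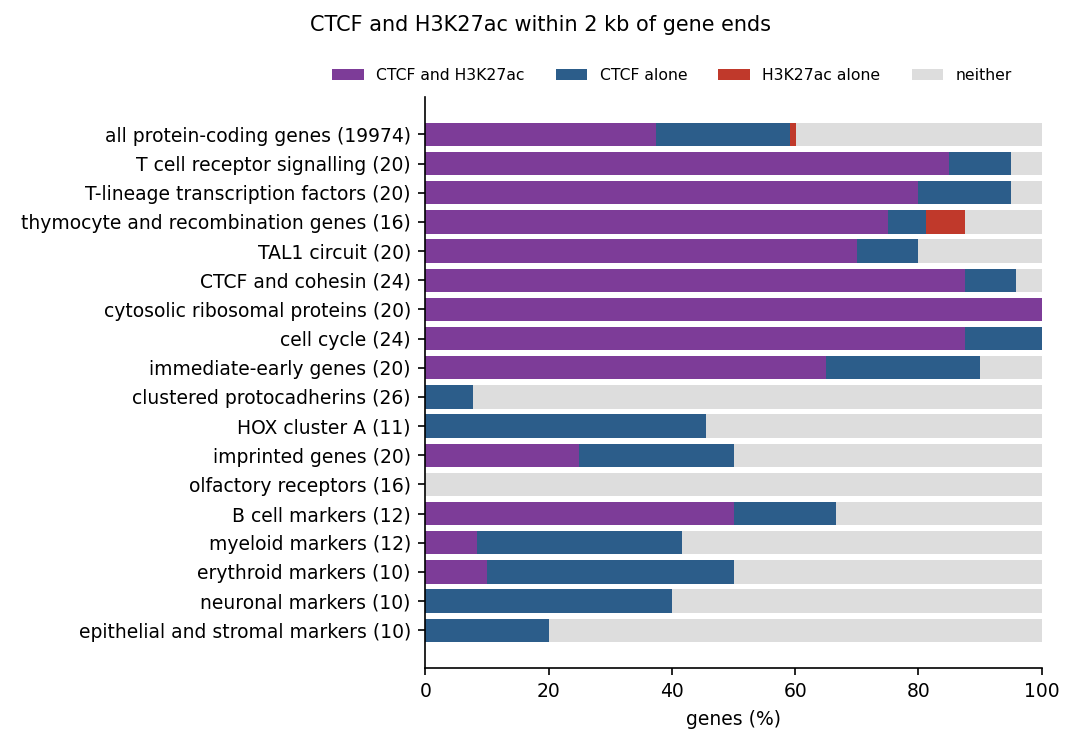
Share of genes (%) with CTCF and H3K27ac, CTCF alone, H3K27ac alone or neither within 2 kb of an end, for all 19974 protein-coding genes and for each gene list (number of genes in parentheses). All 20 listed ribosomal protein genes have both, and none of the listed protocadherin, HOX cluster A and olfactory receptor genes has H3K27ac.

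Single strong sites showed the same mixture. The 6 strongest CTCF regions outside H3K27ac lay at TFAP4, RIPOR1, PIH1D1, AQP5, CYP4F22 and ABCA3, with mean percentiles of 99.8 or more, and 5 of them had a gene end within 2 kb. The region at RIPOR1 was 22.7 kb wide (chr16:67512551-67535240). That near TFAP4, a helix-loop-helix factor, was 5315 bp wide (chr16:4251448-4256762), and the one near CYP4F22, a lipid hydroxylase of skin, lay 2.61 kb from the gene and was 2902 bp wide. The 6 strongest in H3K27ac were at FBRS, C1QTNF6, DHX34, DHRS13, ATP8B3 and CARM1, an arginine methyltransferase, and all had a gene end within 2 kb. The FBRS region (chr16:30655440-30663035) held the strongest CTCF peak of all 3 lists.

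The motif letters were commoner at promoters with CTCF alone than at those with both. Over 22012 windows of 15724 genes, 2.53% held these letters on either strand. The share was 4.12% (3.57 to 4.76%) at genes with CTCF alone, 2.55% (2.23 to 2.91%) at genes with both and 1.81% (1.56 to 2.11%) at genes with neither. For windows that held a CTCF maximum of all 3 lists, it was 6.79% (5.64 to 8.14%) with CTCF alone and 3.06% (2.56 to 3.66%) with both. Median GC contents were 67.0%, 65.0% and 55.7% for CTCF alone, both and neither, and their part in the shares was not tested. Genes with CTCF alone also had the CTCF maximum closer to the letters, at medians of 80.5, 76.5 and 69.0 bp in the 3 lists against 114, 113 and 112 bp at genes with both. It was within 100 bp of the letters in 55.1%, 59.0% and 61.8% of windows with CTCF alone and in 41.7%, 45.5% and 44.1% with both. Windows of one gene or of neighbours can overlap, so the intervals are too narrow.

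Other proteins of the series were found with the overlapping sites. SATB1, a chromatin organizer of T cells, was present at 60.3% of CTCF regions in H3K27ac and at 5.61% of the others. Away from gene ends the shares were 62.7% and 4.57%. Of the 13072 SATB1 regions called in both lists, 63.0% overlapped CTCF in H3K27ac and 7.96% CTCF outside it. Matrin 3, a nuclear matrix protein, was at 91.1% of CTCF regions in H3K27ac and 23.3% of the others in list 1 (24566 peaks), and at 12.5% and 0.783% in list 2 (2105 peaks). Of the Matrin 3 peaks, 55.3% of list 1 and 71.8% of list 2 overlapped CTCF in H3K27ac. Among H3K27ac regions, SATB1 was at 59.1% of those with CTCF and 38.1% of those without. For Matrin 3 these shares were 90.6% and 54.2% in list 1, and 12.5% and 0.296% in list 2. CTCF regions in H3K27ac were wider than the others (medians of 3657.5 and 2883.5 bp). H3K27ac regions with CTCF were wider than those without (2657 and 2299 bp). The part of width in the shares was not tested.

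The measures were repeated in the shSATB1 libraries, which had no part in choosing the regions above. There 46.0% of 17024 CTCF regions overlapped H3K27ac and 53.7% of 14093 H3K27ac regions overlapped CTCF. By peak, 48.2%, 46.3% and 46.1% overlapped H3K27ac, a mean of 46.9 ± 1.12% against 40.0 ± 0.243% in control cells (SD, n = 3 each; exact two-sided permutation p = 0.1). The rank difference of overlapping and other peaks kept its sign in all 3 libraries, at 7.66, 9.95 and 7.83 points, and its mean of 8.48 ± 1.28 was below the 13.8 ± 0.872 of control cells (exact permutation p = 0.1). The edge held 0.606 ± 0.0239 times the interior density, against 0.522 ± 0.0120 (exact permutation p = 0.1), and the first 1 kb outside held 0.908 ± 0.0529 times the density at 20 to 50 kb, against 0.623 ± 0.0556 (exact permutation p = 0.1). For each of these measures the libraries of the arms did not overlap, and 0.1 is the smallest p that 3 against 3 allows. The shSATB1 CTCF lists were shorter, at 14695 to 20284 peaks, with median widths of 1469 to 1746 bp. The part of list length and width in these differences was not tested.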

How the data were processed

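CUT&Tag peak lists of 5 shCtrl libraries (3 CTCF, 2 H3K27ac) were analysed, with those of the other groups where named. The deposited columns hold the summed and highest signal of each peak, which the authors gave as whole numbers without stating a scaling. The submitters' processing notes name SEACR, deepTools, Bowtie2, SAMtools and Trim Galore, the build GRCh38 and, except for Matrin 3, MACS2. Versions and peak thresholds are not given in the sources used here. Of 130166 deposited peaks, 211 (0.162%) outside chromosomes 1 to 22 and X were left out. Lists of different libraries shared at most 0.890% of their peak starts, so none was a copy.

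Peaks of a target were merged at 1 bp, with a region called in a library whose peak overlapped it. A gene end was any start in the RefSeq promoter table (15812 genes) or, for 4162 genes without one, either annotated end; exons and introns were not told apart. Shares carry 95% Wilson intervals. Paired differences over 3 libraries were tested by exact sign-flip permutation, and arms by exact permutation. All 286 genes of the 17 lists matched the gene table. Named were the 6 strongest CTCF regions inside and outside H3K27ac, the 6 widest H3K27ac regions without CTCF and the 6 with most maxima, and up to 4 genes per list and class by mean CTCF percentile; PTPRC, TOX2, RAG2, FOS and other single members outside this rule were chosen after their values were seen. Members and lists were chosen with earlier results of these data known. Statistics were tested on simulated data. Computation used scipy 1.17.1, pandas 2.3.3 and numpy 2.4.6 in Python 3.11.15, with matplotlib 3.10.9 for plots.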

Additional observations from a re-analysis of the deposited data

How the results depend on the processing

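Of 130 recomputed values, 2 turned in sign and 44 moved, that is, a count by over 1.5 times, a share or an H3K27ac difference by over 1 SD between libraries, or the motif difference by over its 95% interval. For the CTCF width, rank and edge differences, whose test cannot pass 0.05, the sign alone was judged. With only the stronger 50% of each list, the H3K27ac width difference was -444.5 bp in place of 388.5 bp. With only peaks that had no gene end within 2 kb, an alternative added after seeing the data, the CTCF rank difference was -5.61 points. The CTCF width difference and the lower density at edges kept their direction in every alternative run, but not their size: 360 to 801 bp for width and, in maxima per kb, -0.0217 to -0.169 for the edge.

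The share of CTCF regions in H3K27ac was 37.6% by the maximum, 32.4% with 50% of the region covered, 41.6% for regions in all 3 CTCF lists, 44.1% for H3K27ac in either list and 29.1% in the stronger 50% of each list. The share of H3K27ac regions with CTCF was 71.2%, 74.2%, 73.9%, 72.0% and 60.3% in the same order. The H3K27ac width difference was 379 bp by the maximum, 219.5 bp with 50% covered and 360.5 bp with all 3 CTCF lists. The H3K27ac rank difference was 22.9 points with 50% covered, 30.3 with either list and 4.07 in the stronger 50%. Regions flanked at both edges numbered 5 in the stronger 50%, and 1 with a 2 kb minimum width, 500 bp edges and 2 kb flanks. Genes with H3K27ac alone numbered 295 with all 3 CTCF lists. The motif share at CTCF alone exceeded that at both by 1.57 points, by 4.26 with the letters CCCTC and by 4.80 with the A of CCA left free.

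Leaving out 1 library gave shares of 40.6 to 42.3% for CTCF and 73.4 to 75.6% for H3K27ac, H3K27ac width differences of 371 to 400 bp, rank differences of 26.9 to 31.1 points and 202 to 288 genes with H3K27ac alone, the last without CTCF list 3. It also changed the rule, as CTCF then needed both remaining lists, or H3K27ac only its 1 remaining list. The main shares of 39.5% and 77.8% and the main count of 181 genes lay outside these ranges. Effects of rule and library cannot be told apart here. All 11 alternatives moved each share. With the replicate block, pairing same-numbered CTCF and H3K27ac lists, the shares were 41.6% and 72.5%, the H3K27ac width difference 401 bp, its rank difference 31.7 points and the regions flanked at both edges 70. The samples share only a number. H3K27ac list 1, the longer, was overlapped more than list 2 by each CTCF list (42.2 against 41.2%, 42.1 against 41.1%, 41.2 against 40.1%), which says nothing about pairing. Depth is unknown, so a region without a call may lie under the level where calling stopped.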
